A study of Mus musculus with 9 samples.

Results

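Aminoacyl-tRNA synthetases join each amino acid to its transfer RNA, the step that fixes the genetic code before a ribosome reads a message. Mammalian nuclear genomes carry separate gene sets for the cytosol and for the mitochondrion, where the mitochondrial set serves the few proteins made on mitochondrial ribosomes. The members described here were the protein-coding genes of the deposited tables whose symbol is that of a synthetase. They were chosen by name and not by any measured value, though earlier results of these data were known. There were 37 of them among 50600 genes, 20 cytosolic and 17 mitochondrial, those of the mitochondrion having a symbol that ends in 2. Kars and Gars each encode the cytosolic and the mitochondrial form of their enzyme and were kept with the cytosolic genes.

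RAW-Blue, the source of the RNA, is a mouse macrophage line with a reporter for inflammatory signalling. It was grown in DMEM with serum and the antibiotics Normocin, Zeocin and Pen-Strep in all groups. Cells of the LPS group (n = 3) were given lipopolysaccharide, an outer membrane component of Gram-negative bacteria, at 1 µg/ml for 24 hours, and cells of the None group (n = 3) were not stimulated. The series has 9 samples, and the group given nanovesicles of Peucedanum japonicum before LPS was left aside, as its labels matched none of the column names. The labels do not say whether replicates were grown separately, so the p-values speak of the spread of these samples alone, and that spread may be technical. Libraries held 14650825 to 17665201 counts, and a member had 59 to 9103 counts in a library. Markers of macrophages were abundant, with a summed level of 17000 to 18600 TPM in LPS and 10800 to 12500 TPM in None over 7 genes. Nearly all of that sum was Lyz2, at 16560 TPM in LPS and 9714 TPM in None, and by mean TPM 4 of the 7 markers were lower in LPS. Csf1r, the receptor for a macrophage growth factor, averaged 177 TPM in LPS and 527 TPM in None. The summed markers of T, B, fibroblast, epithelial and endothelial cells stayed at or below 1.69 TPM per type, and Cd3e, Col1a2 and Epcam were at 0 in every library. LPS replicate 1 lay apart from the other LPS libraries on the next axis of variation after the group axis, an axis that held 3.23% of the variance. In bulk RNA, fewer cells of a type and less RNA per cell cannot be told apart.

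The comparison of LPS with None asked how the genes of each compartment differed between stimulated and non-stimulated macrophages. Cytosolic synthetase genes were mostly higher in LPS and mitochondrial ones mostly lower. Of the 20 cytosolic genes, 16 rose and none fell, against 34.0% of all 11916 genes tested called higher and 35.1% called lower. Of the 17 mitochondrial genes, 13 fell and 1 rose. Calls were made with the quasi-likelihood test of edgeR at an adjusted p under 0.05 (Benjamini-Hochberg, over all genes tested), and all 37 members passed the filter on low counts. The median log2 fold change was 0.74 for the cytosolic genes and -0.45 for the mitochondrial genes, beside -0.03 over all genes tested. By edgeR 0 cytosolic genes were lower even at an unadjusted p under 0.05, and 0 by DESeq2, while limma on TPM values called Vars lower. Scaling by library totals moved all genes by a median of -0.26 on the log2 scale, and TPM values by -0.20. Of the cytosolic genes, 15 were then called higher and 2 lower by library totals, and 15 and 1 by TPM. For the mitochondrial genes the counts were 1 and 15 under both. By library totals, 2679 of all 11916 genes tested were called higher and 6076 lower. By TPM, 2626 of 11449 genes were called higher and 4844 lower. Standard errors of the members' log2 fold changes ran from 0.069 for Iars2 to 0.18 for Pars2.

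**Figure D1:**
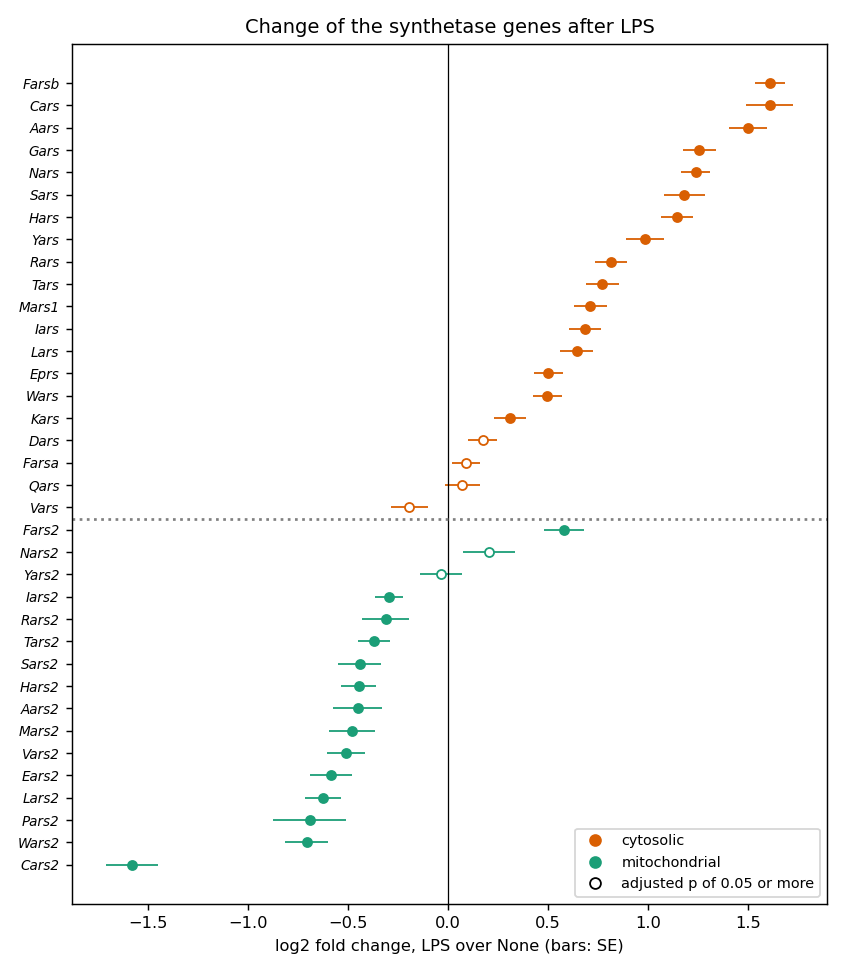
Log2 fold change of 36 of the 37 synthetase genes, LPS over None, from edgeR, with its standard error as a bar. Cytosolic genes are above the dotted line and mitochondrial genes below it, filled points had an adjusted p under 0.05, and the values run from 1.61 for Farsb to -1.58 for Cars2.

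Farsb and Cars had the largest increases. Farsb encodes the beta subunit of the cytosolic phenylalanine enzyme (chromosome 1, 78417975 to 78488859, GRCm38). Its level was 250, 233 and 248 CPM in the LPS libraries, against 75.0, 77.9 and 86.2 CPM in the None libraries. CPM are counts per 1000000 on TMM-scaled library sizes. The 2 groups lay far apart, and Farsb rose 3.06-fold (log2 1.61 ± 0.08 SE, adjusted p = 2.51e-09 by edgeR). Farsa, the alpha subunit of the same enzyme (chromosome 8, 84856989 to 84869257), had 54.1, 56.8 and 59.0 CPM in LPS, against 54.0, 54.9 and 50.8 CPM in None. The Farsa groups overlapped, and its log2 fold change of 0.09 was not called (adjusted p = 0.288 by edgeR) and became -0.17 by library totals and -0.12 by TPM.

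Cars, the cysteine enzyme (chromosome 7, 143557230 to 143600090), had 137, 163 and 174 CPM in LPS, against 42.3, 56.1 and 56.8 CPM in None. It rose 3.05-fold (log2 1.61 ± 0.12 SE, adjusted p = 1.21e-07 by edgeR). Aars, the alanine enzyme (chromosome 8, 111033902 to 111057664), had 276, 292 and 340 CPM in LPS, against 96.2, 111 and 114 CPM in None. It rose 2.83-fold, but it overlaps Exosc6 on the same strand and 5 of its 6 estimated counts were not whole, so reads were divided between genes. Exosc6 itself was lower, at 1.42 CPM in LPS and 13.8 CPM in None, and this division is uncertain. Mean Aars levels were 303 CPM in LPS and 107 CPM in None, far above those of Exosc6 in both groups. Every LPS library lay above every None library for both Cars and Aars.

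The glycine, asparagine, serine and histidine enzymes also rose more than 2-fold. Gars (chromosome 6, 55038007 to 55079500) had 288, 287 and 320 CPM in LPS, against 114, 130 and 130 CPM in None, and rose 2.39-fold. Nars (chromosome 18, 64499647 to 64516652) had 400, 428 and 422 CPM in LPS, against 168, 178 and 185 CPM in None, and rose 2.36-fold. No LPS library of these genes came near a None library. Sars (chromosome 3, 108424865 to 108445198) had 551, 517 and 657 CPM in LPS, against 230, 254 and 277 CPM in None, and rose 2.27-fold. Hars (chromosome 18, 36766528 to 36783205) had 147, 150 and 143 CPM in LPS, against 59.0, 68.7 and 71.4 CPM in None, and rose 2.21-fold. Adjusted p-values of these 4 genes by edgeR lay between 1.88e-08 for Nars and 5.68e-07 for Sars. With Farsb, Cars and Aars, 7 of 20 cytosolic genes were called higher and at least 2-fold changed, beside 11.1% of all genes tested. By library totals that count was 3 of 20 (Farsb, Cars and Aars), beside 8.41% of all genes, and by TPM it was 5 of 20, beside 7.28%.

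Smaller increases were found for the tyrosine, arginine, threonine, methionine, isoleucine, leucine and tryptophan enzymes and for Eprs, a fused enzyme for glutamate and proline. Yars had 131, 154 and 172 CPM in LPS, against 72.5, 78.6 and 79.7 CPM in None, and rose 1.98-fold, while C77080, which overlaps it on the other strand, also rose (log2 0.47). Rars had 186, 218 and 198 CPM in LPS, against 108, 115 and 119 CPM in None, and rose 1.76-fold. Neither pair of groups overlapped. Tars had 166, 192 and 184 CPM in LPS, against 95.8, 108 and 114 CPM in None, and rose 1.71-fold. Mars1 had 145, 166 and 172 CPM in LPS, against 91.9, 98.6 and 104 CPM in None, and rose 1.64-fold. Mars1 overlaps the 3′ end of the stress transcription factor gene Ddit3 on the other strand, and Ddit3 rose too (log2 2.51), so without known strand their reads cannot be told apart where they overlap. Iars had 193, 227 and 213 CPM in LPS, against 126, 129 and 139 CPM in None, and rose 1.61-fold. Lars had 145, 170 and 147 CPM in LPS, against 90.8, 102 and 103 CPM in None, and rose 1.56-fold. Again all LPS libraries lay above all None libraries. Eprs had 294, 319 and 311 CPM in LPS, against 209, 217 and 227 CPM in None, and rose 1.42-fold. Wars, known in human cells as an interferon gamma induced gene, had 124, 134 and 141 CPM in LPS, against 96.9, 93.7 and 91.8 CPM in None, and rose 1.41-fold. Adjusted p-values of these 8 genes by edgeR ran from 1.47e-06 for Yars to 4.85e-05 for Eprs.

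The lysine enzyme gene rose least among the cytosolic genes that were called, and the aspartate, glutamine and valine enzyme genes were, like Farsa, not called. Kars had 156, 160 and 179 CPM in LPS, against 127, 129 and 144 CPM in None, and its log2 fold change of 0.31 (adjusted p = 0.00401 by edgeR) was 0.05 by library totals and 0.08 by TPM, where the call was lost. Dars had 134, 126 and 116 CPM in LPS, against 110, 109 and 116 CPM in None. Its log2 fold change of 0.17 was not called (adjusted p = 0.0513 by edgeR), and became -0.09 by library totals and -0.05 by TPM. Dars was called higher with RLE size factors (0.20), with DESeq2 (0.20) and without LPS replicate 3 (0.23). Qars had 313, 262 and 311 CPM in LPS, against 276, 268 and 298 CPM in None, with overlapping groups. The log2 fold change of Qars was 0.07 and was not called, and it was -0.19 and called lower with library totals. Vars had 240, 261 and 309 CPM in LPS, against 308, 316 and 303 CPM in None. The groups of Vars overlapped through LPS replicate 3, and its log2 fold change of -0.19 (adjusted p = 0.0760 by edgeR) became -0.29 and was called lower without that library (0.00534), as it was by library totals and by TPM (-0.45 in both).

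**Figure D2:**
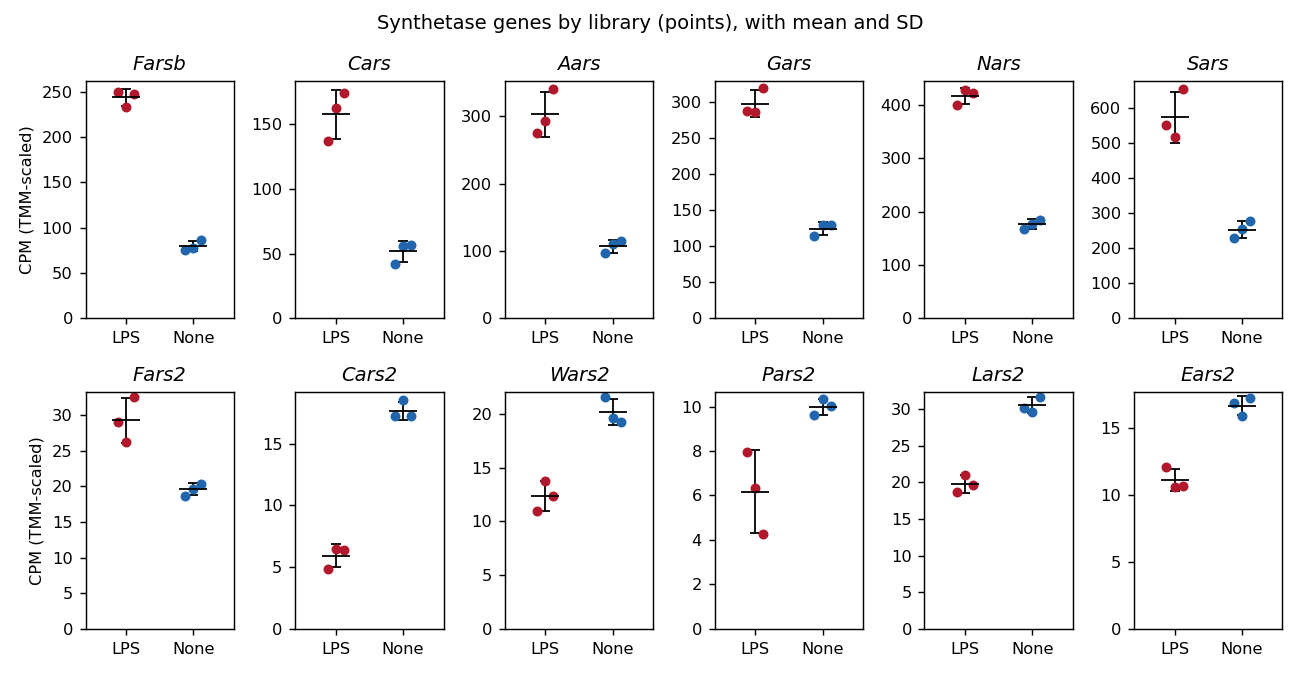
CPM of 12 synthetase genes in each library, LPS at left and None at right in each panel, with points for libraries, a horizontal mark for the mean and bars for the SD over 3 libraries. The upper panels hold the 6 largest cytosolic increases, and the lower panels hold Fars2, which rose, and 5 mitochondrial genes that fell.

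Promoters of members that rose are shown because some carry a short element read by the stress-responsive transcription factor ATF4. ATF4 protein accumulates when amino acids are short or the endoplasmic reticulum is stressed, and many cytosolic synthetase genes are among its known targets. Windows from 250 bases before to 50 bases after the start were taken from a RefSeq table (build GRCm38.p6), in which 27 of the 37 members were found. Cytosolic genes without a window were Cars, Nars, Hars, Rars, Lars, Wars and Vars. The core of the response element was searched as TGATGNAA on both strands, alone and so with no overlap with another motif. It was present in 5 of 13 cytosolic promoters and 0 of 14 mitochondrial genes' promoters. Over all 32851 promoter windows of the same length the share was 3.97%, and over all 27025 genes with a window it was 4.51%. The 5 genes were Aars, Gars, Yars, Tars and Iars, and all 5 rose in LPS, as did 5 of the 8 cytosolic genes whose window had no match. The first base of the match lay at -112 and 9 in Aars, -30 in Gars, 3 in Yars, -15 in Tars and 7 in Iars, counted from the start as 0. A match is a description of letters, not a measured binding site. The 5 windows follow with the matches in capitals, with Cars2, the mitochondrial gene that fell most, as a window without a match. They lie at chr8:111033592-111033891 (plus strand), chr6:55037751-55038050 (plus), chr4:129189653-129189952 (plus), chr15:11399609-11399908 (minus), chr13:49681880-49682179 (plus) and chr8:11550722-11551021 (minus), and each is written 5′ to 3′ along its gene.
Aars: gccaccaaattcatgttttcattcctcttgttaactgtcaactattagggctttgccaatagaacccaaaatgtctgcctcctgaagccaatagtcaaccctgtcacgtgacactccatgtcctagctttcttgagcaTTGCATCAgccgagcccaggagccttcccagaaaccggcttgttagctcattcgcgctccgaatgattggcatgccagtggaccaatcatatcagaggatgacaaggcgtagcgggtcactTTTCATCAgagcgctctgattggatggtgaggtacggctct
Gars: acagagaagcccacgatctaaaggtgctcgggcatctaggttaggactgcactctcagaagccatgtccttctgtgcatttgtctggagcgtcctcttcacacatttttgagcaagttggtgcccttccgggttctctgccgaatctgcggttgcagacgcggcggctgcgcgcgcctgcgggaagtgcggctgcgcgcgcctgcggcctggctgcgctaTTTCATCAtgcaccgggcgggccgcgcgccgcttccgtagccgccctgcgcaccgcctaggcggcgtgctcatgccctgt
Yars: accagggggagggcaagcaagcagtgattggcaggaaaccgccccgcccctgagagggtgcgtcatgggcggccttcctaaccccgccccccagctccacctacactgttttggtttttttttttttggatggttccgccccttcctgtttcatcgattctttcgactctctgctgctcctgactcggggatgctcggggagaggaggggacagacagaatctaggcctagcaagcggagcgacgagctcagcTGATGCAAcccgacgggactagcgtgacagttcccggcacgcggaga
Tars: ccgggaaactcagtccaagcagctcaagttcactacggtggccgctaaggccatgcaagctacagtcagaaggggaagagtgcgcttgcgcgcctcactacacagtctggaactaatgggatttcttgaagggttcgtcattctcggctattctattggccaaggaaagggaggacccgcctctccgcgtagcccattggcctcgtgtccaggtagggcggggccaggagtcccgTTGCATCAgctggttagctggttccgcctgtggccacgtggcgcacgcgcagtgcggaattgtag
Iars: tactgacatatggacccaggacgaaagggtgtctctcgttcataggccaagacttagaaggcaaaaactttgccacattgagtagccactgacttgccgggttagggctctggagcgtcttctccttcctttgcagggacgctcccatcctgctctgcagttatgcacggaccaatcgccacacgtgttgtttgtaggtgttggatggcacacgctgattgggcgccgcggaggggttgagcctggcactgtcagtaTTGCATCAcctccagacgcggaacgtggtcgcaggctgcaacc
Cars2: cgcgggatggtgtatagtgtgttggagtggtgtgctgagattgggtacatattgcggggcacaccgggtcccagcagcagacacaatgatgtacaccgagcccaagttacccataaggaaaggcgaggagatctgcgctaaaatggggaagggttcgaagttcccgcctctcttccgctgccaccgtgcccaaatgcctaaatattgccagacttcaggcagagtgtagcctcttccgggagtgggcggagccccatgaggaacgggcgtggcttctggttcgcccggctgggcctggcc

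The 13 mitochondrial synthetase genes that fell had log2 fold changes between -0.30 and -1.58. Cars2, the mitochondrial cysteine enzyme (chromosome 8, 11513977 to 11550783), had 4.83, 6.46 and 6.42 CPM in LPS, against 17.2, 18.5 and 17.3 CPM in None. It was 2.99-fold lower in LPS (log2 -1.58 ± 0.13 SE, adjusted p = 3.62e-07 by edgeR), the single mitochondrial member called lower and at least 2-fold changed, beside 11.8% of all genes tested. Wars2, the tryptophan enzyme (chromosome 3, 99141068 to 99220203), had 10.9, 13.7 and 12.3 CPM in LPS, against 21.5, 19.6 and 19.3 CPM in None, and was 1.63-fold lower. The LPS libraries of both genes lay below every None library. Pars2, the proline enzyme (chromosome 4, 106651098 to 106655280), had 7.96, 6.32 and 4.26 CPM in LPS, against 9.61, 10.3 and 10.0 CPM in None. Pars2 was 1.62-fold lower with the widest relative spread of LPS libraries among the members. Lars2, the leucine enzyme (chromosome 9, 123366927 to 123462664), had 18.7, 21.1 and 19.6 CPM in LPS, against 30.2, 29.6 and 31.7 CPM in None, and was 1.54-fold lower. Ears2, the glutamate enzyme, which in mitochondria also charges the glutamine transfer RNA before an amidotransferase converts it (chromosome 7, 122038821 to 122067263), had 12.1, 10.6 and 10.7 CPM in LPS, against 16.9, 15.9 and 17.3 CPM in None. Vars2, the valine enzyme (chromosome 17, 35655634 to 35667592), had 22.4, 22.3 and 26.3 CPM in LPS, against 33.7, 35.4 and 32.2 CPM in None. Ears2 and Vars2 were 1.5-fold and 1.42-fold lower, with no overlap between groups in either.

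The other mitochondrial genes that fell changed by log2 -0.30 to -0.48. Mars2 (methionine) had 12.5, 14.4 and 11.0 CPM in LPS, against 18.2, 17.3 and 17.3 CPM in None. Aars2 (alanine) had 10.5, 9.66 and 8.37 CPM in LPS, against 12.4, 12.5 and 14.2 CPM in None. Both were lower in all LPS libraries, by log2 -0.48 and -0.45. Hars2 (histidine) had 17.3, 17.6 and 17.5 CPM in LPS, against 22.9, 24.1 and 24.6 CPM in None. Sars2 (serine) had 9.24, 9.88 and 10.2 CPM in LPS, against 13.0, 13.2 and 13.6 CPM in None. Their log2 fold changes were -0.45 and -0.44, and the groups did not overlap. Tars2 (threonine) had 38.2, 38.1 and 43.6 CPM in LPS, against 50.7, 53.6 and 51.0 CPM in None. Iars2 (isoleucine) had 66.8, 69.3 and 62.0 CPM in LPS, against 80.2, 81.7 and 81.5 CPM in None. Tars2 fell by 0.37 and Iars2 by 0.30 on the log2 scale. Iars2 overlaps Rab3gap2 on the other strand, which also fell (log2 -0.44). Rars2 (arginine) had 17.6, 20.9 and 14.8 CPM in LPS, against 20.9, 22.9 and 22.4 CPM in None, with groups that touched. The call of Rars2 (log2 -0.31, adjusted p = 0.0326 by edgeR) was lost without None replicate 2 (0.0979), None replicate 3 (0.0802), LPS replicate 1 (0.0610) or LPS replicate 3 (0.125), and with DESeq2 (0.0587). Adjusted p-values of the 13 mitochondrial genes that fell ran from 3.62e-07 for Cars2 to 0.0326 for Rars2 by edgeR.

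Fars2, the mitochondrial phenylalanine enzyme (chromosome 13, 36129900 to 36537593), was the 1 mitochondrial gene that rose. It had 29.0, 26.2 and 32.6 CPM in LPS, against 18.7, 19.7 and 20.4 CPM in None, with no overlap, and rose 1.49-fold (log2 0.58 ± 0.10 SE, adjusted p = 0.000222 by edgeR). Its log2 fold change was 0.32 by library totals and 0.33 by TPM, still called. Nars2 (asparagine) had 20.2, 21.4 and 15.7 CPM in LPS, against 14.8, 16.1 and 18.8 CPM in None. Its log2 fold change of 0.20 was not called (adjusted p = 0.177 by edgeR), was -0.05 by library totals and by TPM, and was 0.33 and called without LPS replicate 3. Yars2 (tyrosine) had 20.3, 19.8 and 18.8 CPM in LPS, against 18.4, 19.0 and 23.0 CPM in None, with overlapping groups. Its log2 fold change of -0.03 was not called by edgeR, but it was called lower by library totals (-0.29) and by TPM (-0.36).

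The ratio of the cytosolic to the mitochondrial gene of an amino acid within a library does not depend on how libraries are scaled. There are 18 such pairs, counting Eprs with Pars2 and with Ears2, and Farsa and Farsb with Fars2. In 17 of 18 pairs the ratio was higher in every LPS library than in any None library, and in the other, Farsa to Fars2, it was lower. This held for ratios of counts and for ratios of TPM, a version added after the data were seen. For single genes, 35.7% of all those tested were higher and 38.0% lower in LPS without overlap, which is the nearest background at hand. The pairs were not tested, since an exact permutation test of 3 against 3 cannot go below 0.10. The mean log2 difference, LPS minus None, had a median of 1.14 over the pairs.

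The cysteine pair moved most. Cars exceeded Cars2 by 22.4, 18.6 and 18.1 times in TPM in the LPS libraries, against 1.64, 2.63 and 2.24 times in the None libraries. The alanine pair had ratios of 18.2, 18.9 and 25.8 in LPS, against 4.97, 5.73 and 5.62 in None. The serine pair had ratios of 56.3, 45.1 and 61.8 in LPS, against 17.3, 19.0 and 20.6 in None. These 3 pairs changed by 3.21, 1.95 and 1.62 on the log2 scale of count ratios. The valine pair changed by 0.31. Vars to Vars2 was 12.1, 10.6 and 13.3 in LPS, against 9.84, 8.38 and 10.3 in None, so the groups lay close. For Farsa to Fars2 the ratio was 2.27, 2.63 and 2.28 in LPS, against 3.54, 3.40 and 3.03 in None.

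**Figure D3:**
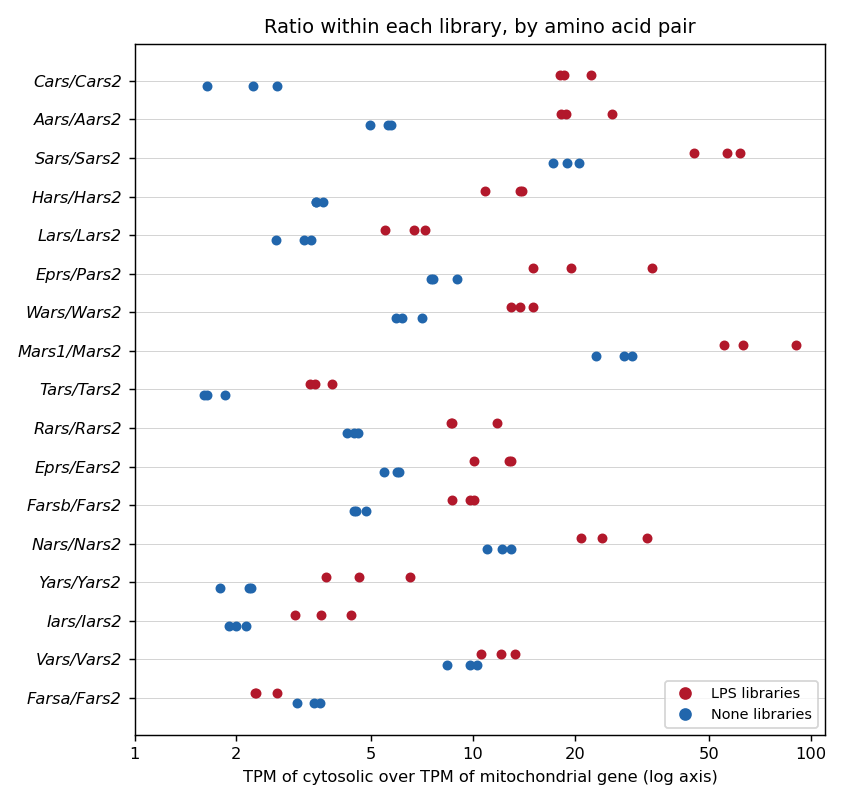
Ratio of the TPM of the cytosolic gene to that of the mitochondrial gene for the same amino acid in each library, on a log axis, for 17 of the 18 pairs. LPS libraries lie to the right of None libraries in all pairs shown except Farsa with Fars2.

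Hars and Hars2 lie head to head on chromosome 18. Hars, on the minus strand, ends at 36783205, and Hars2, on the plus strand, starts at 36783008. Their annotated starts thus overlap, and reads there cannot be told apart without known strand. Among the members, estimated counts that were not whole were found for Aars alone. Hars rose and Hars2 fell, and the ratio of Hars to Hars2 was 13.8, 14 and 10.9 in LPS, against 3.44, 3.44 and 3.61 in None. All LPS ratios lay above all None ratios by a wide margin. Other members lie head to head with a nearby protein-coding gene. Wars rose while its neighbour Wdr25 was called lower (log2 -0.97), and Kars rose while Terf2ip was called lower (-0.92). Sars2 fell beside Mrps12, a mitochondrial ribosomal protein gene at 0.27 that was not called, and Rars2 fell beside Orc3 at 0.12, not called. Ears2 fell while Ubfd1, whose start overlaps it, was not called (0.01), and Yars rose beside S100pbp at 0.02, not called.

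Levels of different genes are compared as TPM, which allows for transcript length. Qars had 294 ± 21.3 TPM in LPS and 309 ± 13.1 TPM in None, and Sars had 352 ± 41.7 TPM in LPS and 195 ± 18.3 TPM in None (SD, n = 3 each). Qars and Sars held the top 2 places in both groups, with Sars above Qars in LPS and below it in None. The next place belonged to Nars in LPS, at 184 TPM, and to Vars in None, at 131 TPM. Mars2 was lowest in both, at 1.20 TPM in LPS and 1.95 TPM in None. The lowest cytosolic gene in LPS was Farsa, at 39.7 TPM in LPS and 43.2 TPM in None.

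Summed over the 20 cytosolic genes, the level was 2179, 2283 and 2386 TPM in the LPS libraries, against 1518, 1604 and 1634 TPM in the None libraries. Over the 17 mitochondrial genes it was 174, 184 and 161 TPM in LPS, against 252, 259 and 251 TPM in None. The mitochondrial genes thus held 7.39%, 7.46% and 6.32% of all synthetase TPM in LPS, against 14.2%, 13.9% and 13.3% in None. The groups did not overlap in any of these sums, which are a description without a test.

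**Figure D4:**
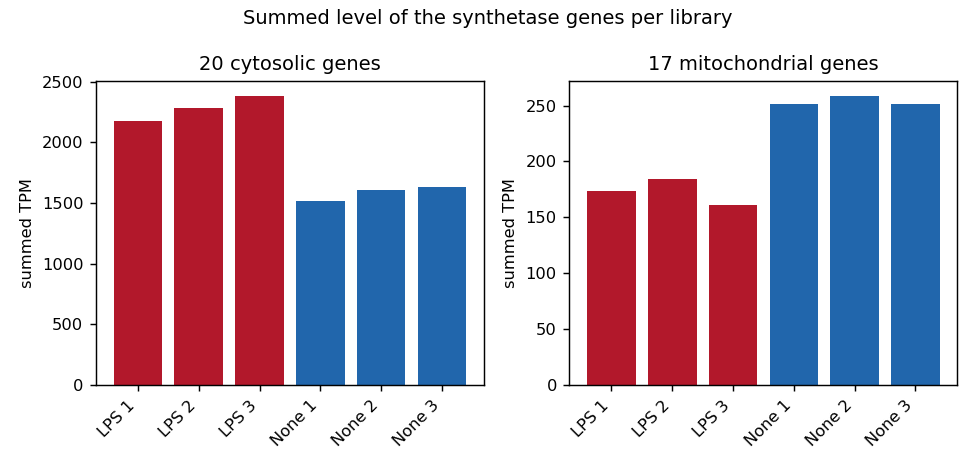
Summed TPM of the 20 cytosolic genes (left) and the 17 mitochondrial genes (right) in each of the 6 libraries, LPS first. The cytosolic sums are at least 2179 in LPS and at most 1634 in None, and the mitochondrial sums at most 184 in LPS and at least 251 in None.

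Synthetases fall into structural classes I and II that share no fold, and both were represented in each compartment. Of the cytosolic genes, 7 of 9 class I and 8 of 10 class II members rose, with Eprs, which has a domain of each, besides. Of the mitochondrial genes, 8 of 9 class I and 5 of 8 class II members fell. Beside these counts and those of the complex below, 34.0% of all genes tested were called higher and 35.1% lower. In animal cells 8 of the cytosolic enzymes (Eprs, Iars, Lars, Mars1, Qars, Rars, Kars and Dars) sit in a multisynthetase complex. Of these 6 rose, with a median log2 fold change of 0.57 and a highest value of 0.81, and of the 12 outside it 10 rose, with a median of 1.16. The complex is held together by 3 scaffold proteins. Eef1e1 had 87.8, 80.6 and 69.7 CPM in LPS, against 32.8, 33.2 and 36.3 CPM in None, and rose with a log2 fold change of 1.22 (adjusted p = 1.67e-07 by edgeR). Aimp1 and Aimp2 were not called, at -0.08 and 0.18, and with library totals they lay at -0.34, called lower, and -0.08.

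Among the 13 cytosolic genes that general knowledge lists as ATF4 targets, 12 rose, Vars being the exception, with a median log2 fold change of 0.77. Of the 7 others 4 rose (Farsb, Hars, Rars and Kars), with a median of 0.31. Over all genes tested, 34.0% were called higher and 35.1% lower. Atf4 itself had 263, 340 and 326 CPM in LPS, against 160, 192 and 201 CPM in None, with no overlap, and rose by 0.75 on the log2 scale. Of 24 genes of the ATF4 and amino acid supply list, 21 rose and 0 fell by edgeR. The count that fell was also 0 at an unadjusted p under 0.05, by DESeq2 and by limma on TPM values. It was 1 (Ppp1r15a, a regulator of eIF2alpha phosphatase) without a filter on low counts, without None replicate 1 and without LPS replicate 3. The fit with the replicate number as a block also gave 1, the same gene. The list's median log2 fold change was 0.99. Cth, an enzyme of cysteine synthesis, had 37.4, 54.0 and 55.4 CPM in LPS, against 0.977, 1.499 and 2.58 CPM in None, a log2 fold change of 4.84. The cystine carrier Slc7a11 had 336, 286 and 234 CPM in LPS, against 20.2, 19.4 and 20.8 CPM in None, a log2 fold change of 3.82. Asparagine synthetase Asns and Chac1, an enzyme that degrades glutathione, were higher at 2.58 and 2.93. With library totals 20 of the 24 were higher and 2 lower (Ppp1r15a and Cebpg). That stress genes rise in these libraries was known when the list was made, so its direction is no independent support.

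Eif2ak4 encodes GCN2, the kinase that senses uncharged transfer RNA. It had 27.7, 33.0 and 28.4 CPM in LPS, against 40.2, 42.4 and 46.0 CPM in None, and fell by 0.53 on the log2 scale (adjusted p = 0.000273 by edgeR). Over the 7 genes of the eIF2alpha kinase pathway, 2 rose and 4 fell, or 1 and 4 with library totals. These are shares of 28.6% and 57.1%, beside 34.0% and 35.1% over all genes tested. Those that rose were Eif2ak2, the RNA-activated kinase PKR (log2 1.71), and Eif2s1, which encodes eIF2alpha (0.46), and the GCN2 inhibitor gene Impact fell (-0.43). The transcription factor gene Myc, whose protein drives many growth genes, had 44.3, 37.9 and 32.0 CPM in LPS, against 0.651, 1.14 and 0.827 CPM in None, a log2 fold change of 5.43.

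Other genes of transfer RNA charging and editing were mostly lower. Of 12 tested, 8 fell and Dtd2, which encodes a transfer RNA deacylase, rose (log2 0.53), though Dtd2 was 0.27 and not called with library totals. Shares called were 66.7% lower and 8.33% higher, beside 35.1% and 34.0% over all genes tested. Tarsl2, a relative of Tars that the naming rule does not take in, had 10.09, 12.05 and 13.13 CPM in LPS, against 19.8, 19.6 and 21.6 CPM in None, and fell by 0.79 on the log2 scale. Sepsecs, which finishes selenocysteine on its transfer RNA, fell by 0.71, and Prorsd1, a relative of a proline editing domain, fell by 0.68. All 3 subunit genes of the mitochondrial amidotransferase that completes glutamine transfer RNA fell, Gatb by 0.48, Qrsl1 by 0.48 and Gatc by 0.25. The list of mitochondrial translation factors and tRNA modifiers had 2 higher and 3 lower of 15 and a median of 0.02. Those counts are 13.3% and 20%, beside 34.0% and 35.1% over all genes tested. By library totals the list had 1 higher and 8 lower, where 2679 of all 11916 genes were higher and 6076 lower. By TPM it had 2 and 7, where 2626 and 4844 of 11449 genes were higher and lower. Lrpprc, which stabilises mitochondrial messages, fell by 0.96, Guf1 fell by 0.59, Gfm2 rose by 0.59 and Gtpbp3 by 0.44. The list of interferon gamma induced genes also holds Ifng and its receptor gene Ifngr1. Of its 13 genes 8 had counts enough for a test. Ido1, Cxcl9 and Ifng had 0 counts in every library, and Gbp2 and Gbp5 had at most 6, so they were not tested. Among the 8 tested genes 6 rose, with Cxcl10 at 5.72 and Tap1 at 1.71, and 2 fell, including Ifngr1 (-1.46). Cxcl10 had 79, 122 and 123 counts in LPS, against 1, 4 and 3 in None, and passed the filter through LPS alone. Of the genes tested that is 75% and 25%, beside 34.0% and 35.1% over all genes tested. By library totals 5 were higher and 2 lower.

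**Figure D5:**
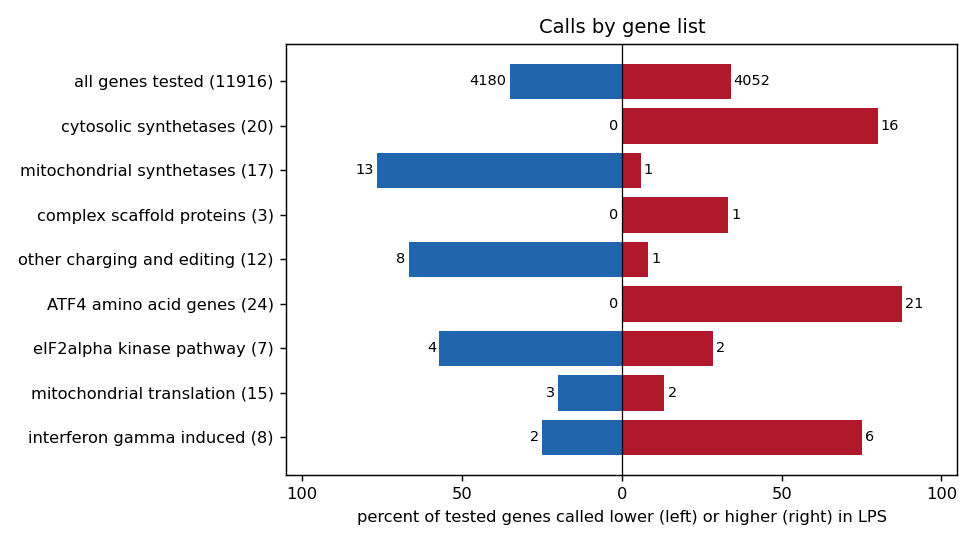
Percent of the tested genes of each list called lower (to the left) or higher (to the right) in LPS by edgeR at an adjusted p under 0.05, with the number called beside each bar and the number tested in parentheses. Cytosolic synthetases were called higher in 16 of 20 and mitochondrial ones lower in 13 of 17, beside 34.0% higher and 35.1% lower over all genes tested.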

How the data were processed

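RNA of 6 RAW-Blue libraries was analysed, 3 LPS and 3 None. Reads were paired 100-base reads filtered with SOAPnuke, per the labels' protocols. STAR (2.7.10a), RSEM (1.3.1) and the build GRCm38 appear in the submitters' processing notes. The deposited expected counts are estimates per gene that divide reads shared between genes, and the TPM values the authors deposited allow for transcript length and sum to 1000000 in a library. Strand use and RNA selection are not given in the sources used here. Columns that matched no label, 12 in all, were not used.

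Expected counts were rounded, filtered with filterByExpr of edgeR 4.0.16 (count minimum 10, total at least 15, R 4.3.3), which left 11916 genes, scaled by TMM and tested two-sided with glmQLFit and glmQLFTest, with group as the single term. The biological coefficient of variation was 8.32%. Standard errors are the size of the log2 fold change over the root of its F statistic. The 530 genes without a symbol stayed in the fit. Alternatives used DESeq2 1.42.0 and limma 3.58.1 on log2(TPM + 1) and log2(TPM + 0.1), which understates the change of low genes. The steps were checked on simulated counts in which a small set of genes changed, equally up and down. That check therefore cannot decide between ways of scaling the libraries. Replicate libraries were not duplicates (chi-square over its degrees of freedom 3.15 to 16.4). Members, gene lists and alternatives were chosen with earlier results of these data known. Of the members 36 are named and 1 is counted but not reported here by name, with values of each library for the 6 largest increases and decreases and for both genes of each amino acid pair called in opposite directions, and up to 4 called genes of each list, without 1 that is not reported here. Values for the remaining members, Farsa, Gatc and Qrsl1, the scaffold genes and the neighbouring genes were added after they were seen.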

Additional observations from a re-analysis of the deposited data

How the results depend on the processing

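All 37 members kept their direction and side of the threshold with a filter of 1 CPM in 3 libraries, without LPS replicate 2 and without None replicate 1. With library totals the median log2 fold change was 0.48 for cytosolic and -0.71 for mitochondrial genes. On log2(TPM + 1) the cytosolic median was 0.57 with or without a filter, and on log2(TPM + 0.1) it was 0.57 beside a mitochondrial median of -0.66. Cytosolic genes called lower, 0 in the results above, numbered 2 with library totals, and 1 (Vars) in each TPM fit, without a filter on low counts and with the replicate block. Leaving out each library gave 0 to 1 cytosolic genes called lower and 1 to 2 mitochondrial genes called higher, the upper values without LPS replicate 3.

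Directions turned for 4 members on scaling alone. By library totals, log2(TPM + 1) with or without a filter and log2(TPM + 0.1), Farsa was -0.17, -0.12 and -0.12, Nars2 -0.0531, -0.0537 and -0.0623, Dars -0.0857, -0.0508 and -0.0515, Qars -0.19, -0.0718 and -0.072, and the scaffold gene Aimp2 -0.0819, -0.0758 and -0.0776. The log2 fold change of Yars2 lay between -0.0967 without None replicate 1 and 0.0717 without None replicate 3, and was 0.0034 without LPS replicate 3. Mitochondrial translation factors called lower numbered 3, against 8 with library totals and 7 on log2(TPM + 1). In the same order, 4180, 6076 and 4844 of all genes tested were called lower. The list's median log2 fold change was 0.02, -0.24 and -0.19, beside -0.03, -0.29 and -0.20 over all genes tested. The cause was not tested. The fit with the replicate number as a block called 8362 genes, against 8232 without it, and 16 cytosolic genes higher. Same-numbered libraries did not deviate together, with correlations of 0.0825, -0.0198 and 0.00954. The labels do not say whether the numbers pair the samples, and a lack of shared deviation cannot exclude it. The block also called 1 gene of the ATF4 list lower (Ppp1r15a). Members had 59 to 9103 counts in a library, which sets the counting error of each value.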
